A study of Homo sapiens
Mus musculus with 2 samples.

Results

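The cells described here are goblet cell barcodes of the mouse colon that had more RNA of Agr2, Reg4, Spink4 and Txndc5 than the other goblet barcodes of the same library. A barcode was kept if it held at least 2500 unique molecular identifiers (UMIs, each standing for 1 captured transcript), at least 20000 counts per 1e+06 UMIs (CPM) of Zg16 and under 2500 CPM of the colonocyte genes Prdx6, Tgm3 and Ces2c together. Of the 293 barcodes kept, 147 were chosen by their summed CPM of the 4 genes, which lay at or above the median of their library, 115 in library 1 and 32 in library 2, out of 2402 barcodes in all. They are called sum-high goblet barcodes below. They were compared with the remaining 146 goblet barcodes (sum-low, 115 and 31) and with 377 Zg16-low secretory barcodes (281 and 96), which met the same limits on depth and colonocyte genes and the same 4-gene median, but had under 20000 CPM of Zg16.

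The data are UMI counts from inDrop, a droplet method for single cells, of colonic epithelial cells from 1 untreated wild-type (WT) C57Bl6 mouse. EDTA and a collagenase and DNase digest released the epithelium, MACS was used to enrich for viable cells, and K562, a human leukaemia cell line, was mixed in. The 2 libraries hold different cells of this mouse and went through 1 sequencing run, so differences between mice were not measured. The p-values of fits with the library as a block rest on how far class differences varied between the libraries. This spread may be technical. In the main fit it was taken from the trend over genes, so a gene whose libraries disagreed could still pass. The libraries held 1738 and 664 barcodes with medians of 4615.5 and 4756.5 UMIs. No barcode had identical counts in both libraries, and the files name barcodes by running numbers, so barcode sequences shared by the libraries could not be counted.

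Goblet cells make the mucus that covers the colon. They fold, dimerise and glycosylate the gel-forming mucin Muc2 in the endoplasmic reticulum (ER) and Golgi apparatus, store it in granules together with Fcgbp, Clca1, Tff3 and Zg16, and release it by exocytosis. They arise from secretory progenitors near the crypt base and move up to the surface. Deep crypt secretory cells, marked in the mouse by Reg4 and Kit, stay beside the stem cells at the base of the crypt.

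Markers that the choice did not read were those of goblet cells. In the sum-high barcodes Muc2 stood at 26510 CPM in library 1 and 19500 CPM in library 2 (CPM of the UMIs summed over the class). This measure is used here and below. Zg16-low secretory barcodes had 21450 and 15760 CPM of Muc2. Scin, an actin-severing protein, stood at 754.5 and 592.3 CPM, against 147.3 and 135.1 CPM in Zg16-low secretory barcodes. Atoh1, the transcription factor that sets the secretory fate, stood at 383.6 and 212.2 CPM. Its level in Zg16-low secretory barcodes was 445.4 and 356.9 CPM, so Atoh1 did not mark the sum-high barcodes apart from them. Markers of T cells, enteroendocrine cells and tuft cells were at low levels, and those of colonocytes were not. The 12 T cell markers summed to 35.9 and 79.2 CPM, against 19591 and 4110 CPM in barcodes with UMIs of at least 3 of them, and Cd3e was at 0 in both libraries. The 10 enteroendocrine markers summed to 42.3 and 44.3 CPM, with Chga and Gcg at 0 in both libraries. The 8 tuft cell markers summed to 113 and 165 CPM, against 97.0 and 169 CPM in sum-low barcodes. The 12 colonocyte markers summed to 8571 and 8789 CPM, below the 15377 and 12278 CPM of sum-low barcodes and above the 2688 and 1934 CPM of Zg16-low secretory barcodes. Most of that sum in sum-high barcodes was Lypd8, at 6258 and 5917 CPM, and in colonocyte barcodes the sum was 45618 and 33791 CPM. The 8 stem cell markers summed to 535 and 402 CPM, against 222 and 126 CPM in sum-low and 855 and 772 CPM in Zg16-low secretory barcodes. Most of that sum in sum-high barcodes was 1 gene, the ion cotransporter Slc12a2, at 455.5 and 313.6 CPM. It stood at 163.5 and 57.7 CPM in sum-low and at 677.9 and 583.8 CPM in Zg16-low secretory barcodes. The 10 myeloid markers summed to 430 and 516 CPM, against 357 and 429 CPM in sum-low barcodes, with Tyrobp and C1qb at 0 in sum-high barcodes of both libraries. The part of other cells in the results below was not tested.

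The words deep crypt in the working name describe the genes of the sum more than its weight. Agr2, a protein disulfide isomerase that Muc2 assembly needs, and Spink4, a Kazal-type inhibitor of the goblet cell, are general goblet genes. Agr2 made up 41.6% and Spink4 40.7% of the 4-gene UMIs of sum-high barcodes in library 1, and 52.5% and 37.0% in library 2. Reg4, a secreted lectin, made up 13.7% and 7.77%, and Txndc5, an ER disulfide isomerase, 3.99% and 2.72%. The leading gene of the sum was Agr2 in 59 and Spink4 in 47 of the 115 barcodes of library 1, and Agr2 in 25 and Spink4 in 7 of the 32 of library 2. Reg4 led in 9 barcodes of library 1 and in none of library 2.

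The genes that chose the barcodes are given as levels, with no test. Reg4 stood at 1677 CPM in library 1 and 931 CPM in library 2 in sum-high barcodes, at 134 and 50.5 CPM in sum-low barcodes, and at 6175 and 5258 CPM in Zg16-low secretory barcodes. Txndc5 stood at 489 and 326 CPM, at 166 and 148 CPM, and at 1158 and 967 CPM in the same order. For both genes the sum-high barcodes lay between the other classes in each library. Agr2, by contrast, was near its level in Zg16-low secretory barcodes (5086 and 6287 CPM against 4510 and 6140 CPM) and above the 2695 and 3078 CPM of sum-low barcodes. Spink4 stood at 4986 and 4437 CPM in sum-high, 2672 and 2836 CPM in sum-low and 5875 and 5443 CPM in Zg16-low secretory barcodes. Zg16, a lectin of the mucus that binds bacterial cell walls, was not part of the 4-gene sum, although its CPM share the total with it. It stood at 75649 and 68564 CPM in sum-high barcodes and at 115839 and 94981 CPM in sum-low barcodes.

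**Figure D1:**
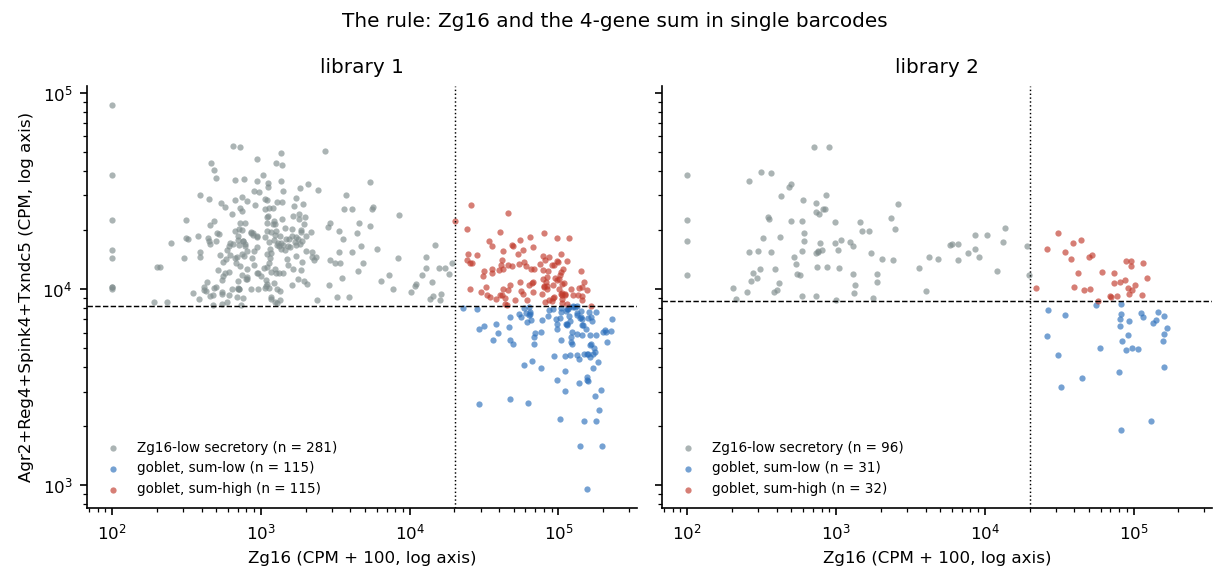
Each point is 1 barcode, with its Zg16 level (CPM + 100, log axis) against the summed CPM of Agr2, Reg4, Spink4 and Txndc5 (log axis) in library 1 (left) and library 2 (right); the dotted line is the Zg16 limit of 20000 CPM and the dashed line the median of the goblet barcodes (8223 and 8639 CPM). Goblet barcodes lie densely on both sides of the dashed line, with 39 of 230 and 9 of 63 within 10% of it.

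The 4-gene sum had no gap at the dividing line, so the 2 goblet classes are ranges of 1 measure. The lowest sum-high barcodes had 8231 and 8639 CPM, and the highest sum-low barcodes 8215 and 8409 CPM. The Zg16 limit was crossed by fewer barcodes, the nearest at 20118 and 21969 CPM inside and 19239 and 19811 CPM outside. Sum-high barcodes had medians of 6863 and 9650.5 UMIs and 2586 and 3282.5 genes. Sum-low barcodes had 6278 and 7889 UMIs and 2122 and 2977 genes, and Zg16-low secretory barcodes 5870 and 8010.5 UMIs and 2634 and 3269.5 genes. The median share of mitochondrial UMIs was 2.97% and 6.55% in sum-high barcodes, near the 3.05% and 6.29% of sum-low and the 3.21% and 6.19% of Zg16-low secretory barcodes. At least 1000 CPM over the 28 mitosis genes were found in 3 and 1 of the sum-high barcodes, in 1 and 0 of the sum-low barcodes, and in 55 (19.6%) and 29 (30.2%) of the Zg16-low secretory barcodes.

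Within the sum-high barcodes the 4 genes did not move as a block. Reg4 ran from 0 to 13051 CPM in library 1 (median 702) and from 0 to 4626 CPM in library 2 (median 602), whereas Agr2 had a median of 5088 CPM with quartiles of 3683 and 5964 CPM in library 1. Across the 115 and 32 barcodes Spearman's rho between Reg4 and Txndc5 was 0.34 and 0.40, and that between Agr2 and Spink4 was -0.24 and -0.51. Zg16 went with Clca1 (0.66 and 0.67) and against Reg4 (-0.55 and -0.41). These values describe barcodes that share a library, a total and a limit on the sum, and a limit on a sum by itself sets its parts against each other. Reg4 UMIs were not in every barcode. With each barcode thinned to 2500 UMIs, 71.3% of sum-high barcodes in library 1 (95% exact binomial interval 62.1 to 79.4) and 65.6% in library 2 (46.8 to 81.4) had a Reg4 UMI, against 24.3% and 6.45% of sum-low and 84.0% and 81.2% of Zg16-low secretory barcodes. Unthinned, the shares of sum-high barcodes were 83.5% and 75.0%. Thinned to 1000 UMIs, so that T-marker barcodes (58 and 23, medians 1689 and 4935 UMIs) could serve as background, the shares were 47.8% and 43.8% in sum-high barcodes, 13.0% and 6.45% in sum-low barcodes and 19.0% and 13.0% in T-marker barcodes. The order of the goblet classes is set by the choice, since Reg4 is part of the sum. The T-marker barcodes also carried goblet RNA, with goblet markers summing to 23421 and 65150 CPM against 10998 and 7947 CPM in colonocyte barcodes, so they are a high background. Kit, the receptor that marks deep crypt secretory cells, had a UMI in 5.22% and 6.25% of sum-high barcodes at this depth. T-marker barcodes had 3.45% and 8.70%, and the shares are not read as expression. The T-marker shares were 2 of 58 and 2 of 23 barcodes (95% exact binomial intervals 0.42 to 11.9 and 1.07 to 28.0). They are too few to tell whether Kit in sum-high barcodes lay above background.

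To read each of the 4 genes in a division that it did not make, the goblet barcodes were divided again at the median of the other 3. The 4 genes were put into 1 sum with earlier results of these data known. The p-values of this reading are therefore not independent support for the 4 genes as a set or for the working name. Reg4 differed between groups formed without it, at 1436 and 888 CPM in the upper against 382 and 81.1 CPM in the lower group. Its log2 difference was 2.08 ± 0.13 (standard error, SE; edgeR quasi-likelihood adjusted p = 1.94e-56), with 1.78 in library 1 and 3.33 in library 2. Txndc5 likewise stood at 472 and 326 CPM against 185 and 148 CPM, a log2 difference of 1.14 ± 0.16 (edgeR adjusted p = 2.50e-09). Agr2 and Spink4 did not pass the threshold of 0.05 in this reading, with differences of 0.23 ± 0.11 and 0.20 ± 0.10 (edgeR adjusted p = 0.394 and 0.479). Of all genes tested, 1.85% passed in the fit that left out Agr2, 3.68% with Reg4 left out, 2.25% with Spink4 left out and 3.31% with Txndc5 left out. Without the library as a block the Txndc5 difference was 1.12 with an edgeR adjusted p of 0.158.

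Beyond the genes of the rule, the sum-high barcodes had less RNA of mucus-layer and surface genes and more RNA of ribosomal proteins, of Slc12a2 and of several deep-crypt products than the sum-low barcodes. UMIs were summed per class and library, and the 6 sums were compared with edgeR's quasi-likelihood test, with class and library as terms. Of 12621 genes tested, 447 passed an adjusted p of 0.05 (3.54%), 225 higher (1.78%) and 222 lower (1.76%) in sum-high barcodes, and 441 of the 447 had the same direction in both libraries. A difference of at least 2-fold was found for 78 of the higher and 118 of the lower genes. Because the classes were cut from the same barcodes on 4 genes, genes that vary along with these 4 differ by the way of choosing. The tests only set such differences against the spread of class differences between libraries, taken from the trend over genes. The values are shares of a class's RNA, so more RNA of 1 gene and less of the others cannot be told apart. Scaling by library totals alone moved the median of all genes by 0.14 on the log2 scale and gave 413 higher and 158 lower genes. Without the library as a block, 25 genes passed, 4 higher and 21 lower.

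The mucus-layer genes were lower as a group. Of 16 tested, 9 were lower and none was higher (median log2 difference -0.39, against 0.02 over all genes tested). Clca1, a metalloprotease that processes mucus, stood at 14200 and 11210 CPM in sum-high barcodes against 38370 and 27010 CPM in sum-low barcodes. Its log2 difference was -1.49 ± 0.09 (edgeR adjusted p under the threshold, as for all genes called higher or lower below). Fcgbp, which cross-links the mucin network, differed by -0.65 ± 0.09, with 9083 and 10580 CPM against 13830 and 14140 CPM. Tff3, a trefoil peptide of mucosal repair, differed by -0.45 ± 0.09. Muc2 itself differed least of the 9 lower genes, by -0.30 ± 0.08, at 26510 and 19500 CPM against 27970 and 23270 CPM. The membrane mucin genes Muc3 (-1.32 ± 0.15), Muc4 (-0.78 ± 0.17) and Muc13 (-0.32 ± 0.10) were also lower. So were Dmbt1 (-2.02 ± 0.14), which encodes a scavenger receptor secreted onto mucosal surfaces, and Lypd8 (-0.50 ± 0.09), whose product keeps flagellated bacteria from the epithelium. Lypd8 also counted among the colonocyte markers above, so mucus-layer genes and genes of surface cells overlap. Without TMM factors 7 of the 16 mucus-layer genes were lower and 1 was higher, and without the block 2 were lower.

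**Figure D2:**
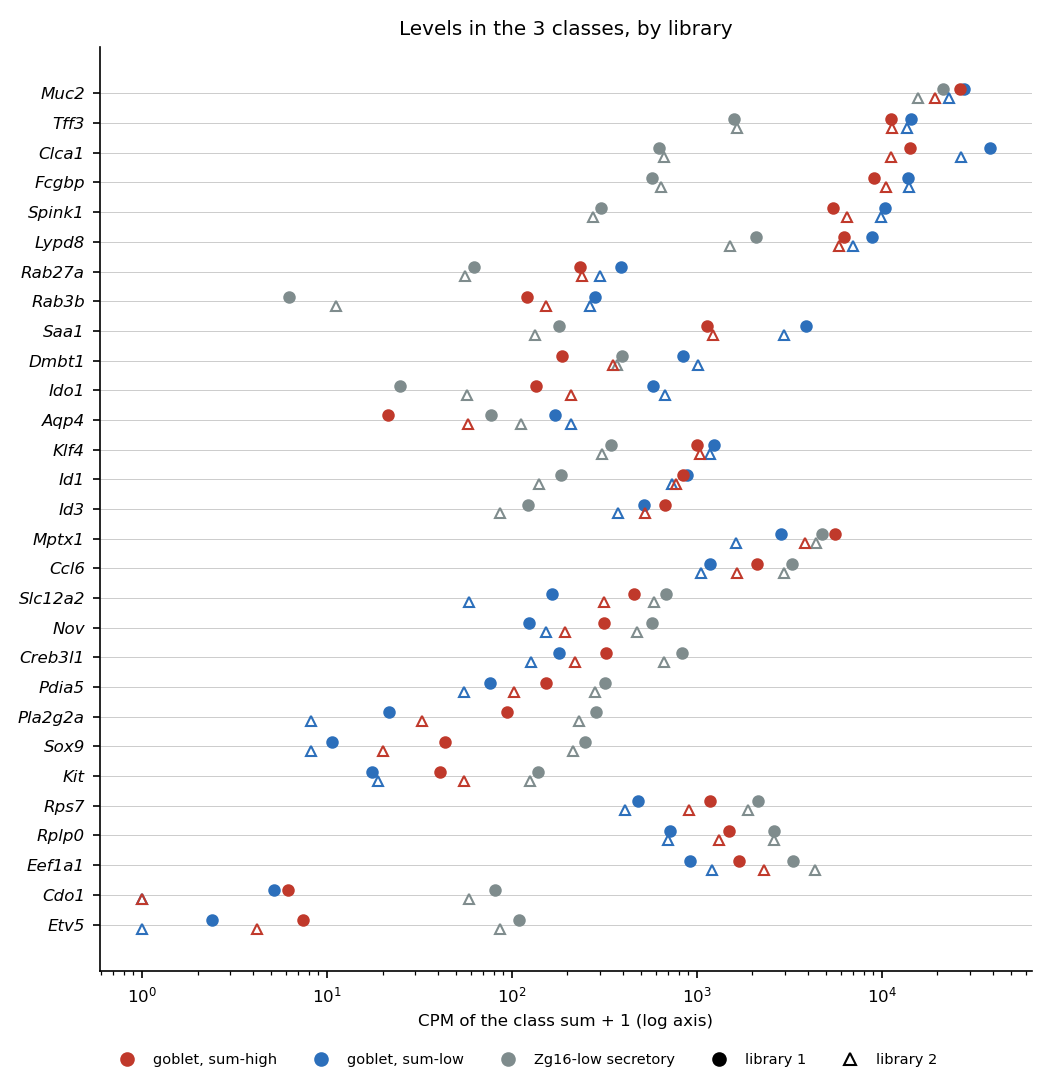
CPM + 1 of the summed UMIs (log axis) of named genes in sum-high goblet barcodes (red), sum-low goblet barcodes (blue) and Zg16-low secretory barcodes (grey), with circles for library 1 and triangles for library 2. For Clca1, Saa1 and Ido1 the sum-high barcodes lie between the other classes and below the sum-low ones, and for Slc12a2, Pla2g2a and Sox9 they lie between the other classes and above the sum-low ones, in both libraries.

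Genes of mature surface cells were lower too. Of 27 colonocyte genes tested, 11 were lower and none was higher (median -0.79). The list median was -1.24 in library 1 and -0.34 in library 2, with 3 and 7 genes of positive sign. With the doublet-scored barcodes left out, which were 8 and 3 of the sum-low and 1 and 3 of the sum-high barcodes, 7 were lower and 1 was higher (median -0.73). Krt20, a keratin of differentiated surface cells, stood at 954.6 and 1045 CPM in sum-high barcodes against 2077 and 1661 CPM in sum-low ones, a log2 difference of -1.05 ± 0.12. Saa1, a serum amyloid protein, stood at 1132 and 1226 CPM against 3884 and 2951 CPM (-1.68 ± 0.11); reads that it shares with related serum amyloid genes could have been split or dropped, and how such reads were counted is not stated here. Atp12a, a proton pump of the distal colon, differed by -1.58 ± 0.24. Ido1, which breaks down tryptophan, stood at 134.7 and 209 CPM against 582 and 670.3 CPM (-2.06 ± 0.16), the groups being far apart in both libraries. Hnf4a, a transcription factor of the differentiated epithelium, differed by -0.74 ± 0.17. Bmp4 (-1.42 ± 0.37) and Bmp3 (-1.39 ± 0.41), secreted signals of the bone morphogenetic protein family, were the 2 of 17 BMP and Id genes that were lower; none was higher.

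Some of the lowest genes rested on few barcodes. Reg3b, an antimicrobial lectin, had the lowest log2 difference of all genes named by the rule (-3.20 ± 0.32), at 8.98 and 41.2 CPM against 77.6 and 349.6 CPM. Of the Reg3b UMIs of sum-low barcodes, however, 28 of 56 in library 1 and 88 of 97 in library 2 came from 1 barcode. Its relative Reg3g (-1.86 ± 0.29) had 23 of 55 and 49 of 69 UMIs in 1 barcode. Aqp4, a water channel, differed by -2.65 ± 0.27 (20.5 and 57.0 CPM against 170.4 and 209 CPM); in library 1 its 123 UMIs in sum-low barcodes were spread more widely, whereas in library 2 36 of 58 came from 1 barcode. The remaining lowest genes were Psca, a surface antigen anchored by a lipid (-2.19 ± 0.44), Dhrs9, a retinol dehydrogenase (-2.15 ± 0.41), Apol10a of the apolipoprotein L family (-2.13 ± 0.34) and Slfn4 of the Schlafen family (-1.89 ± 0.32). Their directions were the same in both libraries, although in library 2 a single sum-low barcode held 7 of 15 UMIs of Psca, 7 of 22 of Dhrs9, 16 of 35 of Apol10a and 17 of 53 of Slfn4.

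Genes listed as products of the deep crypt went in both directions. Of 14 tested, 5 were higher and 4 lower (median 0.40; 0.15 with Mmp7, whose UMIs were at 0 in 1 class, set to its bound). Pla2g2a, a secreted phospholipase that kills bacteria, had the largest positive difference of the genes that passed, at 93.7 and 31.7 CPM in sum-high against 20.8 and 7.21 CPM in sum-low barcodes (1.98 ± 0.37). Mptx1, a pentraxin of intestinal secretory cells, was the most abundant of the 5, at 5566 and 3861 CPM against 2866 and 1632 CPM (0.94 ± 0.10). Its barcode medians were 1915 against 906 CPM in library 1, but 502 against 455 CPM in library 2. There 78.1% of sum-high and 80.6% of sum-low barcodes had a UMI, and the upper quartiles were 5089 and 1508 CPM. Ttr, a thyroid hormone carrier (1.21 ± 0.24), Nov, a matricellular protein (0.87 ± 0.19), and Ccl6, a chemokine (0.63 ± 0.11), completed the higher genes. Spink1, a trypsin inhibitor, was lower at 5492 and 6537 CPM against 10450 and 9878 CPM (-0.89 ± 0.09), as was Tff3, which also counted among the mucus-layer genes. Both were lowest in Zg16-low secretory barcodes (Spink1 303.3 and 274.1 CPM, Tff3 1587 and 1647 CPM), so their levels went against the name of the list. Ang4, an antimicrobial ribonuclease, was lower in the fit (-2.42 ± 0.51), but only library 1 showed it, with 9 UMIs against 58, and library 2 held 3 UMIs against 1. Retnlb, a resistin-like goblet product, was lower in the fit (-0.50 ± 0.14), with -1.27 in library 2 and 0.01 in library 1. None of 12 crypt niche genes passed the threshold. Kit stood at 39.8 and 53.9 CPM against 16.6 and 18.0 CPM (1.23 ± 0.42, edgeR adjusted p = 0.0793).

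Sox9, a transcription factor of the crypt base, had a higher level in sum-high barcodes, although at few UMIs (33 and 6 against 7 and 2; 1.81 ± 0.50). Of 20 secretory factors it and Creb3l1, a membrane-bound factor that the cell releases when secretion is under load (322.1 and 218.5 CPM against 178.7 and 126.1 CPM; 0.69 ± 0.18), were higher. Klf4, a factor of goblet cell maturation, was the only one lower, at 1002 and 1036 CPM against 1239 and 1186 CPM (-0.39 ± 0.12). Atoh1 (0.14 ± 0.16) and Spdef (0.24 ± 0.23), which drive goblet differentiation, and Xbp1 (0.30 ± 0.16), the factor of the unfolded protein response, did not pass.

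Few genes of the secretory route passed, and their lists differed in sign: 30 of 33 translocation genes had a positive difference, against 19 of 37 mucin glycosylation genes and 10 of 30 granule genes. Of 33 genes of ER translocation and N-glycosylation 3 were higher and none lower (median 0.28): Spcs2 of the signal peptidase (0.79 ± 0.14), and Rpn1 (0.56 ± 0.13) and Ost4 (0.53 ± 0.16) of the oligosaccharyltransferase. Of 43 ER folding genes 2 were higher and none lower (median 0.17), the disulfide isomerases Pdia5 (0.84 ± 0.24) and Pdia6 (0.50 ± 0.13), so that the share passing was near the 3.54% of all genes. Hspa5, the chief chaperone of the ER, stood at 2333 and 1954 CPM against 2027 and 1405 CPM (0.19 ± 0.11, not past the threshold). Creb3l1 was the only 1 of 27 genes of the unfolded protein response that passed. Of 37 mucin glycosylation genes 1 passed, St3gal4, a sialyltransferase, which was lower (-0.91 ± 0.22). Of 30 granule and exocytosis genes 3 were lower and none higher (median -0.21): the small GTPases Rab3b (-1.20 ± 0.20) and Rab27a (-0.73 ± 0.17), which dock granules, and the syntaxin Stx3 (-0.76 ± 0.22). These counts depended on the scaling: with library totals alone 10 of the 33 translocation genes and 7 of the 43 folding genes were higher, and for granule genes 2 were higher and 2 lower.

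**Figure D3:**
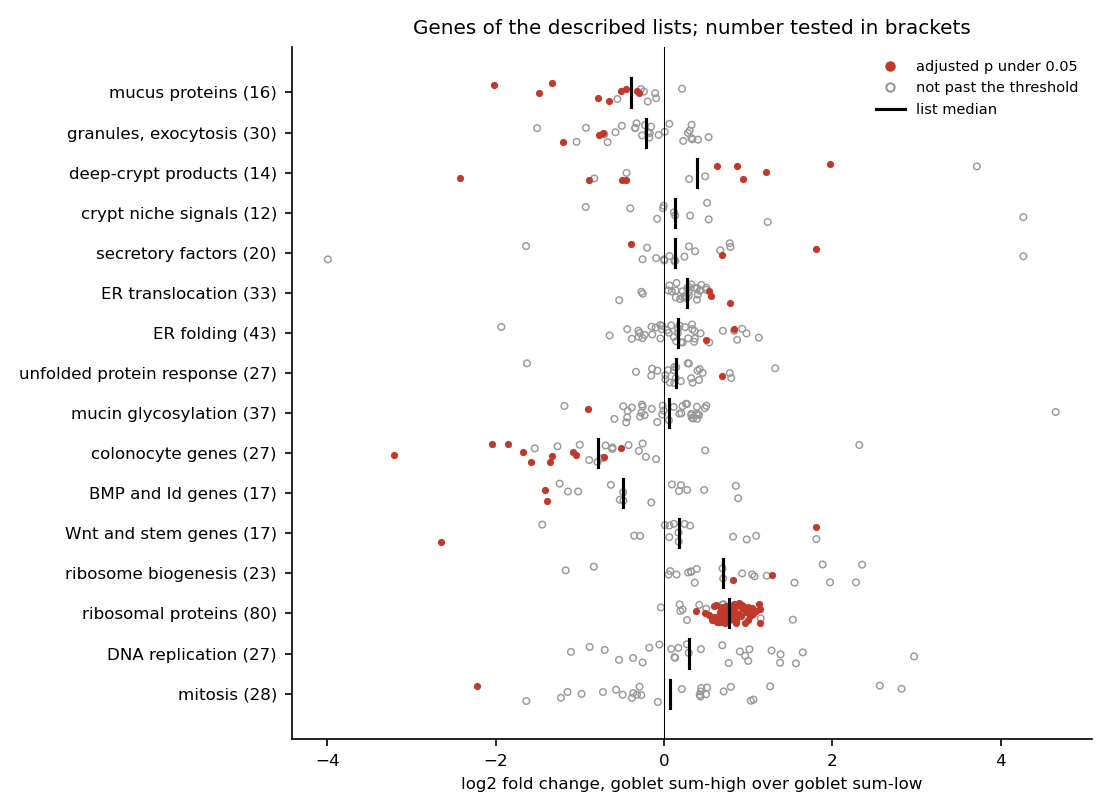
Log2 fold change of each gene (points) between sum-high and sum-low goblet barcodes, 1 row per gene list with the number of genes tested in brackets; red points passed an edgeR adjusted p of 0.05, open points did not, and black bars are list medians. Ribosomal protein genes lie to the right of 0 (68 of 80 higher), and colonocyte and mucus genes mostly to the left.

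Ribosomal protein genes, a list added after values had been seen, differed nearly all in 1 direction. Their summed level was 57200 and 49030 CPM in sum-high barcodes against 29280 and 28700 CPM in sum-low barcodes, and 98070 and 95960 CPM in Zg16-low secretory barcodes, so the sum-high barcodes lay between the others in each library. Of 80 genes tested, 68 were higher and none was lower (median 0.78), 79 with a positive sign in library 1 and 77 in library 2. Rps7 stood at 1180 and 902.7 CPM against 482.2 and 410.8 CPM (1.09 ± 0.13). Under the alternatives that kept the library block the number of higher genes was 47 to 70, 47 being the one with barcodes thinned to 2500 UMIs. Without the block none passed, with a median of 0.76. Eef1a1, the elongation factor that brings transfer RNA to the ribosome, also had a higher level, 1694 and 2319 CPM against 917.3 and 1204 CPM (0.78 ± 0.11). Of 23 ribosome biogenesis genes 2 were higher and none lower (median 0.70): Nop10 (1.28 ± 0.33), of the particles that modify ribosomal RNA, and Npm1 (0.82 ± 0.24), a nucleolar chaperone. Genes of DNA replication (0 of 27) did not pass in either direction, and of 28 mitosis genes only Plk1, a mitotic kinase, was lower, at 1 and 4 UMIs against 14 and 6; thinned to 2500 UMIs its sign turned.

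Ion transport and early response genes were among the genes with the largest positive differences. Slc12a2, the sodium-potassium-chloride cotransporter that loads cells with chloride, stood at 455.5 and 313.6 CPM against 163.5 and 57.7 CPM (1.53 ± 0.17). Slc12a8 of the same family (1.43 ± 0.30), Best2, a bicarbonate channel of goblet cells (0.76 ± 0.18), and Car2, a carbonic anhydrase (0.69), were also higher, and of 21 ion transport genes only Aqp4 was lower. Of 22 immediate early and stress genes 6 were higher and none lower, among them Fosb (1.48 ± 0.26), Zfp36 (0.94 ± 0.19) and Ier2 (0.87 ± 0.18); these genes also respond to the handling of cells, and a part of dissociation in their levels was not tested. Btg2 (0.84 ± 0.24) was higher in library 1 only (1.31 against -0.18). The other genes with large differences included Hn1l (2.03 ± 0.40), Pomt1, a protein O-mannosyltransferase (1.84 ± 0.35), Itpr1, a calcium release channel of the ER (1.72 ± 0.35), Rasd1, a small GTPase (1.70 ± 0.31), the predicted gene Gm8624 (1.56 ± 0.32), Fam98a (1.48 ± 0.38), the metallothionein Mt1 (1.45 ± 0.38) and the phospholipase Pla2g2f (1.42 ± 0.38). Of 17 antigen presentation and interferon genes Ifitm2 was higher (1.21 ± 0.34), and Ido1, Irf7 (-1.33 ± 0.32) and Gbp2 were lower; Gbp2 was lower in library 1 (-1.11) and not in library 2 (0.19).

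When the goblet barcodes were ranked by the 4-gene sum and cut into 4 groups of nearly equal size, some genes ran along the ranking and others did not. In library 1 (57 or 58 barcodes each) Slc12a2 stood at 93.1, 240, 395 and 515 CPM from the lowest to the highest group, and in library 2 (15 or 16 each) at 59.1, 56.6, 173 and 497 CPM. Dmbt1 stood at 992, 671, 300 and 73.9 CPM in library 1 and at 1554, 616, 548 and 95.1 CPM in library 2. Dmbt1 thus fell along the whole ranking in both libraries, although its middle groups in library 2 held 98 UMIs each. A single sum-high barcode held 67 of 145 Dmbt1 UMIs in library 1 and 54 of 111 in library 2. Slc12a2 rose at each step in library 1. In library 2 its lowest groups held 7 and 9 UMIs, too few to order them. Ido1 stood at 716, 437, 256 and 15.3 CPM in library 1 and at 617, 710, 313 and 73.1 CPM in library 2, where its order broke. Reg4, which is part of the sum, was concentrated at the top, with 2730 and 1660 CPM in the highest group against 610 and 374 CPM in the next. Muc2 lay between 25377 and 28065 CPM in library 1 and between 18027 and 23347 CPM in library 2. Sox9, at few UMIs, stood at 7.98, 11.6, 46.5 and 38.2 CPM in library 1. The groups of library 2 held under 20 barcodes each, and its order also broke for Krt20 and for Clca1 (25132, 28399, 11332 and 11048 CPM), whose levels stepped at the median there. No test was made on the ranking.

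**Figure D4:**
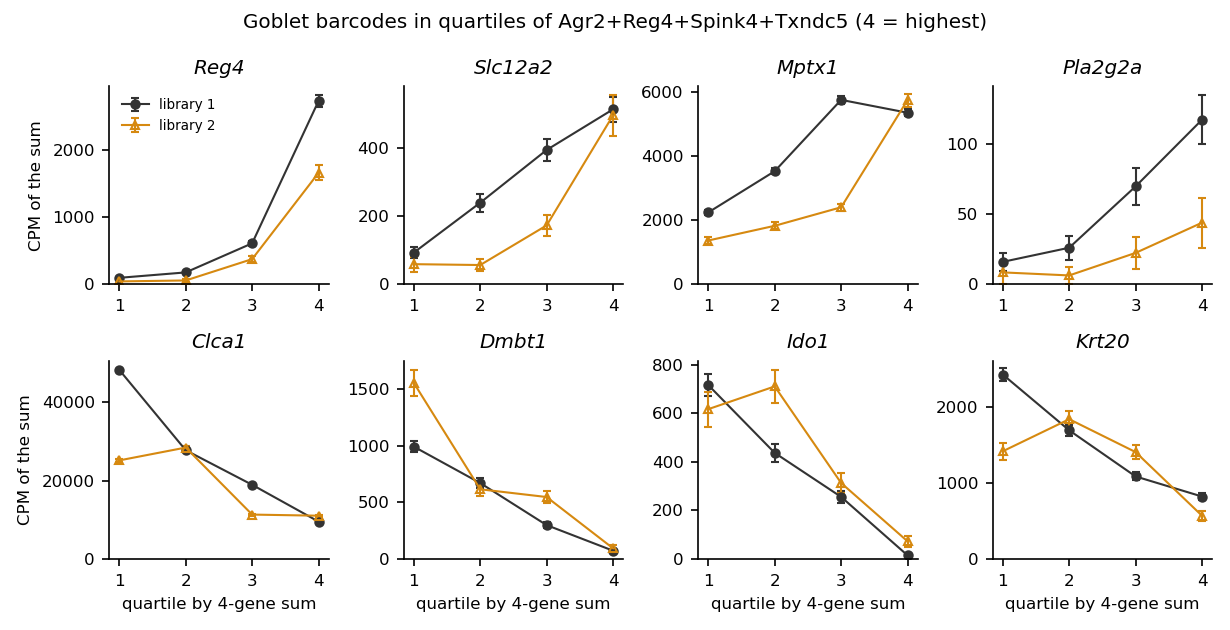
CPM of the summed UMIs of 8 genes in goblet barcodes ranked by the 4-gene sum and cut into 4 groups (4 is the highest), with black circles for library 1 and orange triangles for library 2; error bars are the square root of the UMI count and cover counting error only. The 4 genes of the upper row are highest in group 4, except Mptx1 in library 1 (5769 CPM in group 3, 5366 CPM in group 4), and the 4 genes of the lower row are lowest there.

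Compared with Zg16-low secretory barcodes, which had as much of the 4-gene sum or more, the sum-high barcodes carried far more RNA of mucus and granule genes and less of genes of division, translation and the stem cell zone. This comparison used the same sum-high libraries as the one above, so the 2 are not independent. The Zg16 limit divides these classes, and Zg16 is itself a gene of the mucus. Mucus, granule and other genes that vary along with Zg16 therefore differ by the way of choosing. Of 12621 genes tested, 1571 passed (12.4%), 838 higher (6.64%) and 733 lower (5.81%) in sum-high barcodes. A difference of at least 2-fold was found for 483 higher and 458 lower genes, and 1567 of the 1571 had the same direction in both libraries. Scaling by library totals alone moved the median of all genes by -0.26 on the log2 scale and gave 510 higher and 1520 lower genes; without the library block 632 passed.

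Of 16 mucus-layer genes 10 were higher and 1 lower (median 0.87, against -0.05 over all genes tested). Clca1 stood at 14200 and 11210 CPM against 625.2 and 664.1 CPM (4.56 ± 0.10). Fcgbp stood at 9083 and 10580 CPM against 570.7 and 639.9 CPM (4.29 ± 0.10), and Tff3 at 11300 and 11310 CPM against 1587 and 1647 CPM (3.07 ± 0.10). Muc2 differed much less, at 26510 and 19500 CPM against 21450 and 15760 CPM (0.57 ± 0.08). The difference in the gel-forming mucin was thus much smaller than that in the mucus proteins stored with it. Slpi, an inhibitor of leukocyte protease (3.12 ± 0.12), Sval1 (1.84 ± 0.10) and Klk1, a kallikrein (0.62 ± 0.11), were also higher, and Wfdc2 was lower (-1.72 ± 0.33). Spink1 stood at 5492 and 6537 CPM against 303.3 and 274.1 CPM (4.63 ± 0.11). After thinning to 1000 UMIs, Clca1 had a UMI in 31.7% of Zg16-low secretory barcodes in library 1 and 32.3% in library 2, under the 63.8% and 52.2% of T-marker barcodes, so these low shares are not read as expression.

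Granule and exocytosis genes went the same way, with 13 of 30 higher and 1 lower (median 0.71). Rab3b, which acts in regulated secretion, stood at 119.3 and 152 CPM against 5.22 and 10.2 CPM (4.49 ± 0.31). Capn9, a calpain of digestive tract mucous cells, stood at 345.1 and 243.9 CPM against 42.3 and 68.8 CPM (2.81 ± 0.19). Scin (2.53 ± 0.14), Bcas1 (2.46), Rab27b (2.36) and Rab27a (2.26) followed. In the comparison of the goblet classes the same list had no higher gene and 3 lower ones, and Capn9 did not pass there (-0.17 ± 0.16).

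Several surface genes lay above the Zg16-low level although they lay below the sum-low level. Of 27 colonocyte genes 7 were higher and 3 lower (median 0.56), but the list as a whole had a positive median in library 2 only (1.39, with 24 genes positive), against -0.17 with 12 positive in library 1. Krt20 stood at 954.6 and 1045 CPM against 176.9 and 108.3 CPM (3.03 ± 0.13), Saa1 at 1132 and 1226 CPM against 179.8 and 132.6 CPM (3.16 ± 0.13) and Atp12a at 43.6 and 136.2 CPM against 6.96 and 10.2 CPM (3.42 ± 0.35). Guca2b, which encodes the peptide uroguanylin, was lower (-2.47 ± 0.40). Id1 and Id3, targets of BMP signalling, stood at 840.4 and 769.7 CPM against 182.7 and 138.9 CPM (2.57 ± 0.14) and at 671.1 and 525.8 CPM against 121.2 and 85.4 CPM (2.79 ± 0.15). Between the goblet classes neither passed: sum-low barcodes had 884 and 735.1 CPM of Id1 (-0.15 ± 0.13) and 519.6 and 374.8 CPM of Id3 (0.28 ± 0.14). Klf4 was higher, at 1002 and 1036 CPM against 341 and 304.7 CPM (1.91 ± 0.12). Ido1, lower than in sum-low barcodes, was higher than in Zg16-low secretory barcodes (134.7 and 209 CPM against 23.8 and 56.1 CPM; 2.47 ± 0.21).

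**Figure D5:**
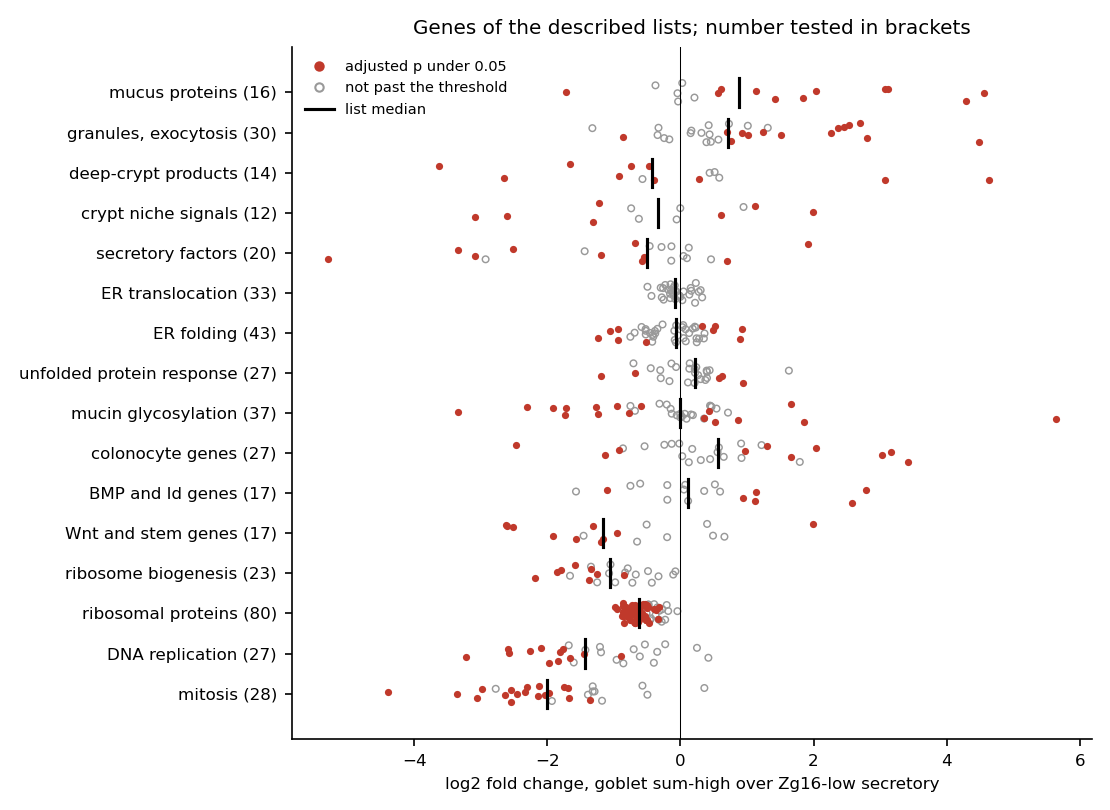
Log2 fold change of each gene (points) between sum-high goblet barcodes and Zg16-low secretory barcodes, 1 row per gene list with the number of genes tested in brackets; red points passed an edgeR adjusted p of 0.05, open points did not, and black bars are list medians. Mucus and granule genes lie mostly to the right of 0, and mitosis, DNA replication and ribosomal protein genes to the left.

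Genes listed as deep-crypt products were more often lower than higher. Of 14 tested 3 were higher (Spink1, Tff3 and Mptx1) and 7 lower (median -0.43). Spink1 and Tff3 were highest in sum-low barcodes and lowest in Zg16-low secretory barcodes, against the name of the list. Pla2g2a stood at 93.7 and 31.7 CPM against 284.7 and 229.4 CPM (-1.66 ± 0.21), Nov differed by -0.75 ± 0.14 and Ccl6 by -0.47 ± 0.10. Guca2a, which encodes guanylin, differed by -0.92 ± 0.13, and Retnlb by -0.39 ± 0.13. Mmp7 (-3.63 ± 0.75), a protease known from Paneth cells, and Lyz1 (-2.65 ± 0.88), their lysozyme, rested on 2 UMIs each in sum-high barcodes. For Lyz1, 21 of the 35 UMIs of Zg16-low secretory barcodes in library 1 came from 1 barcode, and library 2 had 1 UMI against 3. Mptx1 was higher by 0.27 ± 0.10 only, and its libraries gave 0.49 and 0.07. Of 12 crypt niche genes 3 were higher and 4 lower. Kit stood at 39.8 and 53.9 CPM against 137.4 and 124.9 CPM (-1.31 ± 0.26), and Dll1, a Notch ligand, at 2 and 1 UMIs against 47 and 27 (-3.09 ± 0.68). Cd44 (-2.60 ± 0.55) and Cd24a (-1.22 ± 0.14), surface proteins of crypt base cells, were lower as well, whereas Tnfrsf19 (1.99 ± 0.51), Tgfa (1.13 ± 0.31) and Hgfac (0.62 ± 0.13) were higher.

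Of 20 secretory factors 2 were higher (Klf4 and Elf3, 0.71 ± 0.13) and 8 lower. Sox9 stood at 42.3 and 19.0 CPM against 247.6 and 212.9 CPM (-2.51 ± 0.25), Sox4 at 5.13 and 0 CPM against 37.1 and 66.3 CPM (-3.34 ± 0.58), and Creb3l1 at 322.1 and 218.5 CPM against 829.3 and 665.4 CPM (-1.19 ± 0.14). Insm1, a factor of enteroendocrine precursors, passed as lower with no UMI in sum-high barcodes and 6 and 12 in Zg16-low secretory ones, but 10 of those 12 came from 1 barcode. Spdef (-0.54 ± 0.19) and Foxa1 (-0.57 ± 0.20) were slightly lower, and Atoh1 did not pass (-0.14 ± 0.14, edgeR adjusted p = 0.660). Of 17 Wnt and stem cell genes 9 were lower and 1, Tnfrsf19, was higher (median -1.17), with Ephb3, a guidance receptor of the crypt base (-2.62 ± 0.59), Igfbp4 (-1.91) and Lrig1 (-1.57 ± 0.40) among the lower. Slc12a2, higher than in sum-low barcodes, was lower than in Zg16-low secretory barcodes (455.5 and 313.6 CPM against 677.9 and 583.8 CPM; -0.45 ± 0.14).

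Genes of cell division were lower as a group: 18 of 28 mitosis genes (medians -2.04 and -2.10 in libraries 1 and 2) and 12 of 27 replication genes (median -1.43), with none higher. Birc5, a chromosome passenger protein that had 4 and 2 UMIs in sum-high barcodes against 102 and 71, differed by -3.36 ± 0.48. Ccnb2, a mitotic cyclin (-2.98 ± 0.48), Cdc20, an activator of the anaphase ligase (-4.40 ± 0.87), and Tk1, a thymidine kinase (-3.22 ± 0.58), were among the lower. The dividing barcodes noted above lay mostly in the Zg16-low class. When every barcode with at least 1000 CPM over the mitosis genes was left out of all classes, 1 mitosis gene and 5 replication genes were lower, and 1079 of all genes passed. This left 143 sum-high and 293 Zg16-low secretory barcodes. Since the mitosis genes themselves chose the barcodes left out, the smaller number of lower mitosis genes follows from that choice. The chromatin protein gene Hmgb2, at 64.2 and 44.3 CPM against 405.4 and 637.4 CPM, differed by -2.80 ± 0.19 in the full classes. Of 80 ribosomal protein genes 63 were lower and none higher (median -0.63), and of 23 ribosome biogenesis genes 8 were lower (median -1.05). With the dividing barcodes left out these numbers were 65 and 7, and without the library block 3 of the 80 passed.

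ER genes differed in both directions. Of 43 folding genes 5 were higher and 5 lower, among them Hspa5 (0.53 ± 0.10) and the oxidase Ero1l (0.90) higher and Pdia5 (-0.94 ± 0.18) and Prdx4, a peroxiredoxin of the ER (-1.24 ± 0.43), lower. No translocation gene of 33 passed; with library totals alone 11 were lower, and in the folding list 1 was higher and 14 lower. Of 27 unfolded protein response genes 3 were higher, among them the sensor Atf6 (0.94 ± 0.25), and Creb3l1 and Creb3l4 (-0.69 ± 0.23) were lower. Mucin glycosylation genes divided likewise, with 7 of 37 higher and 10 lower. Gcnt3, which branches mucin O-glycans (1.86), and St6gal1, a sialyltransferase (1.66), were higher. A4gnt (-3.34 ± 0.58; 4 and 0 UMIs against 73 and 41), Fut4, a fucosyltransferase (-1.91 ± 0.24), and B3gnt6, which forms the core 3 O-glycan (-1.72), were lower. B4galt2, a galactosyltransferase (5.64 ± 0.55), had the largest positive difference of the list, on 37 and 24 UMIs against 2 and 1.

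Among single genes large positive differences went to several that are not known goblet genes. Lama4, a laminin chain, stood at 599.2 and 1033 CPM against 19.1 and 31.9 CPM (5.25 ± 0.17), the zinc finger gene Zfp644 at 639 and 1058 CPM against 30.2 and 53.5 CPM (4.62 ± 0.16) and the entry C19orf25 at 418.3 and 535.3 CPM against 14.5 and 24.2 CPM (4.94 ± 0.20). Olfr448, an olfactory receptor gene (6.33 ± 0.47), 1700017I07Rik (5.98 ± 0.37), the antisense entry Cyp4x1os (5.02 ± 0.38), the protocadherin gene Pcdhb21 (4.88 ± 0.28), Ceacam19 (4.67 ± 0.22) and Vstm4 (4.55 ± 0.42) also stood among the 12 highest of the genes with at least 50 CPM in the higher class and 1 direction in both libraries, with Spink1, Clca1 and Rab3b. No source used here gives the counting strand or the treatment of reads that fit several genes, so whether reads of neighbouring or antisense genes entered these entries was not tested, and their values are uncertain. The lowest under the same limit were Cdo1, a cysteine dioxygenase (-4.05 ± 0.53; 4 and 0 UMIs against 138 and 45), Etv5, an ETS factor (-3.92 ± 0.45), Ifitm3 (-3.67 ± 0.51), Birc5, Hopx, a homeodomain protein (-3.26 ± 0.41), Ccnb2, Hmgb2 and Gpx2, a glutathione peroxidase of the crypt (84.7 and 25.3 CPM against 523.7 and 474.2 CPM; -2.73 ± 0.19). Of 21 ion transport genes 6 were higher, among them Best2 (0.77 ± 0.16), the chloride channel Ano1 (1.78 ± 0.17) and the sodium channel subunit Scnn1b (2.01 ± 0.59), and 5 lower, among them the potassium channel genes Kcne3 (-1.68 ± 0.35) and Kcnn4 (-1.62 ± 0.36).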

How the data were processed

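The deposited files hold counts: per the labels' protocols, RNA of inDrop-encapsulated cells was amplified linearly (CEL-Seq) and sequenced on a NextSeq500, and the authors deposited whole-number counts of 25504 genes per barcode, not normalized. The submitters' processing notes name the builds GRCh38 and GRCm38; no source used here gives the aligner or counter. Members and gene lists were chosen with earlier results of these data known.

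UMI counts were scaled to CPM per barcode for the rule and summed per class and library for the tests, giving 6 sums of 277497 to 1724339 UMIs. Genes with at least 20 UMIs over the sums were tested with edgeR 4.0.16 (R 4.3.3): TMM factors, glmQLFit and glmQLFTest, class plus library, Benjamini-Hochberg adjustment over all genes, threshold 0.05. The 8 rule genes were fitted but not counted. The fit had 2 residual degrees of freedom, and the spread per gene was taken wholly from the trend over genes (common dispersion 0.00846). Cells were never replicates. Libraries pair the classes by construction, since every class was cut from both. Doublets were kept; leaving out the 5% of barcodes with the highest score from simulated pairs (87 and 33 in the libraries, of which 1 and 3 sum-high and 8 and 3 sum-low) was an alternative. On data simulated for the goblet comparison over 12236 genes, the fit recovered 27.6% of genes changed by 1 and 64.3% of those changed by 2 on the log2 scale, with 1 false call. The simulation gave every gene the common dispersion and the same mean share in both libraries. Its number of false calls therefore does not measure that of the real data. Other alternatives were DESeq2 1.42.0, other scalings, filters, thinning, depth, class limits and leaving out a library. Named genes were the 12 highest and 8 lowest by log2 difference among genes past the threshold, of the same direction in both libraries and with at least 50 CPM in the higher class, plus up to 4 passing genes per list and members of the main lists. Counting intervals cover counting error only. Promoter and protein sequences were not used here. A few genes that the rule names are not reported here.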

Additional observations from a re-analysis of the deposited data

How the results depend on the processing

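Of the settings tried, most left the number of genes passing within 1.5 times. For sum-high against sum-low goblet barcodes (447 genes) the exceptions were 25 genes without the replicate block, 156 with barcodes thinned to 2500 UMIs and 190 with DESeq2. DESeq2 gave an adjusted p for 1605 genes only; all 190 were among the 447. Against Zg16-low secretory barcodes (1571 genes) the exceptions were 632 without the replicate block, 614 thinned and 575 with DESeq2, which gave an adjusted p for 6989 genes. Thinning tested 8678 genes; the cause of the other differences was not tested. Library totals without TMM factors, tried after seeing the data, gave 571 and 2030 genes, of which 383 and 1243 were shared with the reported calls. With the rule genes left out of the totals and the fit, 435 and 1540 genes passed, 430 and 1481 of them shared with the reported calls. Leaving out Clca1, Fcgbp, Tff3 and Muc2 too, also tried after seeing the data, gave 431 and 1542.

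Leaving out 1 library leaves 1 sum per class and no residual degrees of freedom, so those values have no test and no number of calls. Between sum-high and sum-low barcodes, the values without replicate 1 and without replicate 2 had opposite signs for Ang4 (1.24 and -2.94), Btg2 (-0.18 and 1.31), Gbp2 (0.19 and -1.11) and Retnlb (-1.27 and 0.012). Plk1 turned to 1.30 (edgeR adjusted p = 0.923) with thinned barcodes. Read in a division made without it, Reg4 ranged from 1.78 to 3.33 over the 2 libraries. Txndc5 lost its call without the replicate block (1.12, edgeR adjusted p = 0.158). Thinning limits what genes of few UMIs can show: of the 86 named genes of the goblet comparison, 46 kept their sign but missed the threshold there, and 1 more, Plk1, turned sign.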
